A study of Mus musculus with 24 samples.

Results

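The genes described here build and work on chromosomes during meiosis, the cell division of germ cells. They are 10 of the 19938 genes measured: the cohesin genes Smc1b and Stag3, the synaptonemal complex genes Syce1, Sycp1, Sycp2 and Sycp3, the axis gene Hormad1, and the recombination genes Tex11, Dmc1 and M1ap. Each was taken by its gene symbol in the platform annotation, as the only symbol of a probe set, and Hormad1, which has 2 such probe sets, by the one with the higher mean. The members were chosen because earlier results of these arrays had placed several of them above wild type in Eed knockout cells. The difference between knockout and wild type is therefore a description here. Where limma's call rule is applied to it, in all arrays or in a pair of lines, the calls only set the members beside the share of all genes and are no independent test of them. Differences between cell lines of a genotype and changes over days were tested. The day changes share arrays with the difference between knockout and wild type and are not independent of it.

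RNA was measured on 24 Affymetrix Mouse Gene 1.0 ST arrays from undifferentiated mouse embryonic stem cells (ESCs) of day 0 and from embryoid bodies (EBs), the aggregates in which ESCs differentiate, on days 3 and 7. The deleted gene Eed encodes a subunit of Polycomb repressive complex 2, the enzyme that methylates lysine 27 of histone H3. The groups were Eed knockout (KO) cells of line E14 and of line J1, and wild-type (WT) cells of line V6.5 and of line J1. Each was measured on all 3 days with 2 arrays a day, so that each genotype and day had 4 arrays. Each line stands for 1 clone of its genotype, and J1 is the only line present as both KO and WT. Per the labels' protocols, all ESCs were grown with LIF-conditioned medium on mitomycin C-inactivated mouse embryonic fibroblasts, and EBs were started from fibroblast-depleted ESCs in hanging drops without LIF. The labels give neither the deleted part of Eed nor whether repeat arrays came from separate cultures. Standard errors and p-values thus measure a spread between arrays, and its part between repeat arrays may be technical. In contrasts of genotypes or days that pool lines, this spread also holds the difference between the clones of a genotype. Only comparisons between single lines rest on repeat arrays alone.

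Meiosis pairs the maternal and paternal copy of each chromosome and exchanges DNA between them. Cohesin rings hold sister chromatids together, and SMC1B and STAG3 are subunits that replace mitotic ones in germ cells. On this cohesin core an axis forms from SYCP2, SYCP3 and HORMAD1, and the synaptonemal complex joins paired axes through filaments of SYCP1 that are bound in the centre by SYCE1. DMC1 is the meiotic recombinase, TEX11 promotes crossovers, and M1AP is a germ cell protein needed for spermatogenesis in mice. Outside the germline such genes are mostly silent. DNA methylation of their promoters and a Polycomb repressive complex 1 variant, PRC1.6, are known to repress many of them, and PRC1.6 contains proteins that bind E2F sites and E-boxes.

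Promoter windows were looked up because the E2F core TCCCGC and the E-box CACGTG are the letters that PRC1.6 subunits are known to recognise. RefSeq windows of build GRCm38.p6, from 250 bases before to 50 bases after the start site, were given for 9 of the 10 members, and the missing one is Tex11. Both motifs were searched on both strands, and no matches overlapped in the members' windows. TCCCGC stood in the windows of 7 of the 9 members, against 20.02% of the 27025 first windows of all genes, and CACGTG in 4 of 9, against 7.24%. Both were present in Sycp1, Sycp3, Stag3 and Hormad1, against 2.05% of all genes, and neither was found in Syce1 and Sycp2. A match is a run of letters and not a bound site. Both motifs contain a CpG, and the shares over all genes were not matched for base composition. The members' windows held 54.67% to 69% GC, against a median of 52.67% in the first windows of all genes. Their median ratio of observed to expected CpG dinucleotides was 0.67, against 0.39. The first windows are also not limited to the genes measured. Whether the motifs are more frequent than base composition gives was not tested. The 4 windows below show 2 members whose KO arrays stood above WT on every day (Smc1b on chr15:85131908-85132207, minus strand, and Stag3 on chr5:138280259-138280558, plus strand), the member whose difference between KO and WT varied most over days (Sycp3 on chr10:88459337-88459636, plus strand), and one whose arrays overlapped between genotypes on every day (Hormad1 on chr3:95559427-95559726, plus strand). The overlap of Hormad1 is that of the probe set used, and its second probe set is described below. Capitals mark the 2 motifs, with GCGGGA as the reverse strand of TCCCGC.
Smc1b: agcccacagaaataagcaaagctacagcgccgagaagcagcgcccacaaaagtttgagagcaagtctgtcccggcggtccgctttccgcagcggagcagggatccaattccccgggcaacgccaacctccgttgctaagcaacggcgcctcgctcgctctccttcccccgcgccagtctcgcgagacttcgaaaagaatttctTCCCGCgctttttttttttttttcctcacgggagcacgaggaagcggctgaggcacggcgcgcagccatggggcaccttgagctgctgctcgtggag
Stag3: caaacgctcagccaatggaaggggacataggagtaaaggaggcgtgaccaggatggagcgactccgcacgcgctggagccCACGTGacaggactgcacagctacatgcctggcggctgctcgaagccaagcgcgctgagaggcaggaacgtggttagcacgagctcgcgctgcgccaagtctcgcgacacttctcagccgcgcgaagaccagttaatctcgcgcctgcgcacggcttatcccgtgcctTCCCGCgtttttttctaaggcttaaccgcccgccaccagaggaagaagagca
Sycp3: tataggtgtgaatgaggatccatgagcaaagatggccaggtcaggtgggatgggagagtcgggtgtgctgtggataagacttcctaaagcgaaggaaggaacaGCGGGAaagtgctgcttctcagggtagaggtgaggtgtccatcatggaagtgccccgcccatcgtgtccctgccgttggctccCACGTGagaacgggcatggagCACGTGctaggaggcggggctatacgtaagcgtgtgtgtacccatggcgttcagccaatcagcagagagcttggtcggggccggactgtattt
Hormad1: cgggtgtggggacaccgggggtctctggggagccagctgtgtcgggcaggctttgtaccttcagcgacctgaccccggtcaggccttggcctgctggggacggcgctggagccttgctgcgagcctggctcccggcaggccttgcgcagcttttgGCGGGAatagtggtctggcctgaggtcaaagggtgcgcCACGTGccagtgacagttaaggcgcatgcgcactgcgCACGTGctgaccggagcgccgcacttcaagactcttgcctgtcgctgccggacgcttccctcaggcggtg
In Stag3 the TCCCGC match starts at position −2 and in Smc1b at position −47 relative to the start site. Sycp3 and Hormad1 each hold 2 E-boxes and 1 TCCCGC match. The ratio of observed to expected CpG dinucleotides ran from 0.363 in the Sycp2 window, above 48.2% of all windows, to 1.083 in the Smc1b window, above 97.5%. It was 1.063 in Stag3 (above 96.9%), 0.874 in Sycp1 (85.2%), 0.713 in Hormad1 (71.9%), 0.666 in Sycp3 (68.5%), 0.625 in Syce1 (65.8%), 0.571 in Dmc1 (62.4%) and 0.427 in M1ap (53.25%).

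The labels were checked first. Eed was between 5.76 and 7.48 on the log2 scale in the 12 KO arrays and between 9.37 and 11.02 in the 12 WT arrays. The ESC genes Pou5f1, Nanog, Sox2, Zfp42 and Esrrb had a median array mean of 11.89 in KO and 11.62 in WT on day 0, and of 11.19 in KO and 7.79 in WT on day 7. Repeat arrays correlated at r = 0.990 or more, except the WT J1 arrays of day 7, with r = 0.962 and 1256 genes that differed 2-fold or more. The other 11 pairs had 21 to 163 such genes. The members' day 7 differences that met the call rule and their called WT changes from day 0 to day 7 are also given without this pair, with some counts. Most other results that use the pair, such as those of the J1 lines, named list genes and marker genes on day 7, are given only with it.

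Below, a value is a log2 RMA expression value of 1 probe set. Values of different genes are not compared, because probe sets differ in response. A gene is said to be called where limma's Benjamini-Hochberg adjusted p over all 19938 genes was under 0.05 and the difference at least 2-fold, which is 1 on the log2 scale. Olfactory receptor genes, which are silent outside the nose for the most part, give a level for silent genes. The 95th percentile of the mean values of 1027 such genes was 6.26, and in all 4 arrays of a group 9, 7 and 8 members lay above it in KO on days 0, 3 and 7, and 6, 5 and 3 in WT. Tex11 lay above it in 4, 0 and 1 KO arrays on days 0, 3 and 7 and in none of the 12 WT arrays, Sycp2 in 1, 1 and 0 KO arrays and no WT array, and Smc1b in all KO arrays and 1 of 12 WT arrays. Because probe sets differ in response, a group below this percentile may still hold RNA of the gene. A difference from such a group may be understated. In bulk RNA, fewer cells expressing a gene and less RNA per cell cannot be told apart.

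On day 0, before differentiation, 5 of the 10 members met the call rule as higher in KO ESCs and none as lower. They were Smc1b, Stag3, Syce1, Tex11 and M1ap, and the same 5 met it on day 3. On day 7 there were 6, with Sycp3 added. Over all genes 0.461%, 0.667% and 3.08% were called higher in KO on days 0, 3 and 7, and 0.145% on all 3 days. Called lower were 0.0903%, 0.0903% and 1.28%. As the members were chosen on this contrast, nothing is read from these counts. All 4 KO arrays lay above all 4 WT arrays for 5, 6 and 8 members on days 0, 3 and 7, and for 6.33%, 6.12% and 9.7% of all genes, and no member showed the opposite. For 5 members and 1.24% of all genes this held on all 3 days. The median difference of the 10 members was 1.30, 1.12 and 1.55 on the log2 scale on days 0, 3 and 7, beside −0.03, 0.00 and −0.04 over all genes.

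Of the meiotic cohesin genes, the members Smc1b and Stag3 had higher values in KO on each day, while Rec8, no member, is given with the other meiotic genes. Smc1b, the meiotic counterpart of the mitotic subunit Smc1a, read 8.87 and 8.72 in E14 KO and 7.55 and 7.32 in J1 KO on day 0, against 5.76 and 5.66 in V6.5 WT and 6.38 and 5.99 in J1 WT. All KO arrays lay above all WT arrays, and the E14 KO arrays above the J1 KO arrays. On day 3 Smc1b read 6.81 and 7.91 in E14 KO and 6.39 and 6.79 in J1 KO, against 5.54 and 5.66 in V6.5 WT and 5.86 and 5.92 in J1 WT. Here the lowest KO array was 0.473 above the highest WT array, the narrowest gap of the 3 days. On day 7 Smc1b read 8.48 and 7.70 in E14 KO and 7.06 and 7.35 in J1 KO, against 5.23 and 5.25 in V6.5 WT and 5.81 and 5.79 in J1 WT. The groups were again separate, with E14 KO highest and V6.5 WT lowest. The differences were 2.17, 1.23 and 2.13 on days 0, 3 and 7 (SE 0.309, n = 4 and 4). On day 3 the call rule was missed in 6 of 8 removals of a single replicate, at limma's adjusted p = 0.053 to 0.15. Smc1b also missed the rule on day 3 without the KO E14 clone, without the WT J1 clone or without the WT V6.5 clone.

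Stag3, which pairs with meiotic kleisins in the cohesin ring, read 10.09 and 10.08 in E14 KO and 9.58 and 9.50 in J1 KO on day 0, against 8.16 and 8.07 in V6.5 WT and 8.11 and 8.22 in J1 WT. The WT arrays lay within an SD of 0.07, and the lowest KO array was 1.27 above the highest of them. On day 3 it read 8.95 and 9.45 in E14 KO and 8.13 and 8.80 in J1 KO, against 7.50 and 7.26 in V6.5 WT and 7.52 and 7.10 in J1 WT. On day 7 it read 9.02 and 8.71 in E14 KO and 8.59 and 9.02 in J1 KO, against 6.95 and 7.53 in V6.5 WT and 7.76 and 7.72 in J1 WT. KO and WT did not overlap on any day, and both genotypes were lower in EBs than in ESCs. The differences were 1.67, 1.49 and 1.34 on days 0, 3 and 7 (SE 0.223).

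Among the synaptonemal complex genes, Syce1 was separate between genotypes on all days, Sycp3 on day 7 and Sycp2 on days 3 and 7, while Sycp1 overlapped throughout. Syce1 read 9.19 and 9.13 in E14 KO and 8.30 and 8.40 in J1 KO on day 0, against 6.88 and 6.76 in V6.5 WT and 7.40 and 7.35 in J1 WT. On day 3 it read 7.79 and 8.19 in E14 KO and 7.07 and 7.57 in J1 KO, against 5.95 and 6.04 in V6.5 WT and 6.21 and 6.20 in J1 WT. On day 7 it read 7.91 and 8.18 in E14 KO and 7.11 and 7.31 in J1 KO, against 5.76 and 5.66 in V6.5 WT and 5.73 and 6.37 in J1 WT. Levels were highest in ESCs in both genotypes, and the differences of 1.65, 1.55 and 1.75 on days 0, 3 and 7 (SE 0.228) lay within 1 SE of each other.

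Sycp3, a main component of the axis, differed from Syce1 in its course. On day 0 it read 7.61 and 8.32 in E14 KO and 7.65 and 8.11 in J1 KO, against 7.36 and 7.34 in V6.5 WT and 8.17 and 8.34 in J1 WT. On day 3 it read 8.58 and 8.95 in E14 KO and 8.08 and 8.13 in J1 KO, against 6.70 and 7.06 in V6.5 WT and 8.40 and 7.66 in J1 WT. On both days the groups overlapped, with 1 of the J1 WT arrays inside the range of the KO arrays. On day 7 it read 7.32 and 7.43 in E14 KO and 7.23 and 7.92 in J1 KO, against 5.23 and 5.08 in V6.5 WT and 5.23 and 5.35 in J1 WT. The genotypes were then separate, and all 4 WT arrays lay below 6.26, the 95th percentile of the olfactory receptor genes. The differences were 0.12, 0.98 and 2.25 on days 0, 3 and 7 (SE 0.294).

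Sycp2, the partner of SYCP3 in the axis, lay between 5.12 and 6.42 in KO and 4.49 and 5.13 in WT on day 0. On day 3 it lay between 5.23 and 7.08 in KO and 4.44 and 5.17 in WT, and on day 7 between 5.19 and 5.72 in KO and 4.47 and 4.92 in WT. Its high KO values came from E14, with 5.90 and 7.08 on day 3, while J1 KO read 5.23 and 5.40. Its differences of 0.84, 1.07 and 0.78 on days 0, 3 and 7 (SE 0.291) did not meet the call rule. Sycp1, the transverse filament, was 0.94, 0.44 and 0.54 apart (SE 0.207) and did not meet it either. On day 0 it lay between 6.86 and 7.72 in KO and 5.89 and 6.90 in WT, so that the genotypes overlapped by a single KO and a single WT array.

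**Figure D1:**
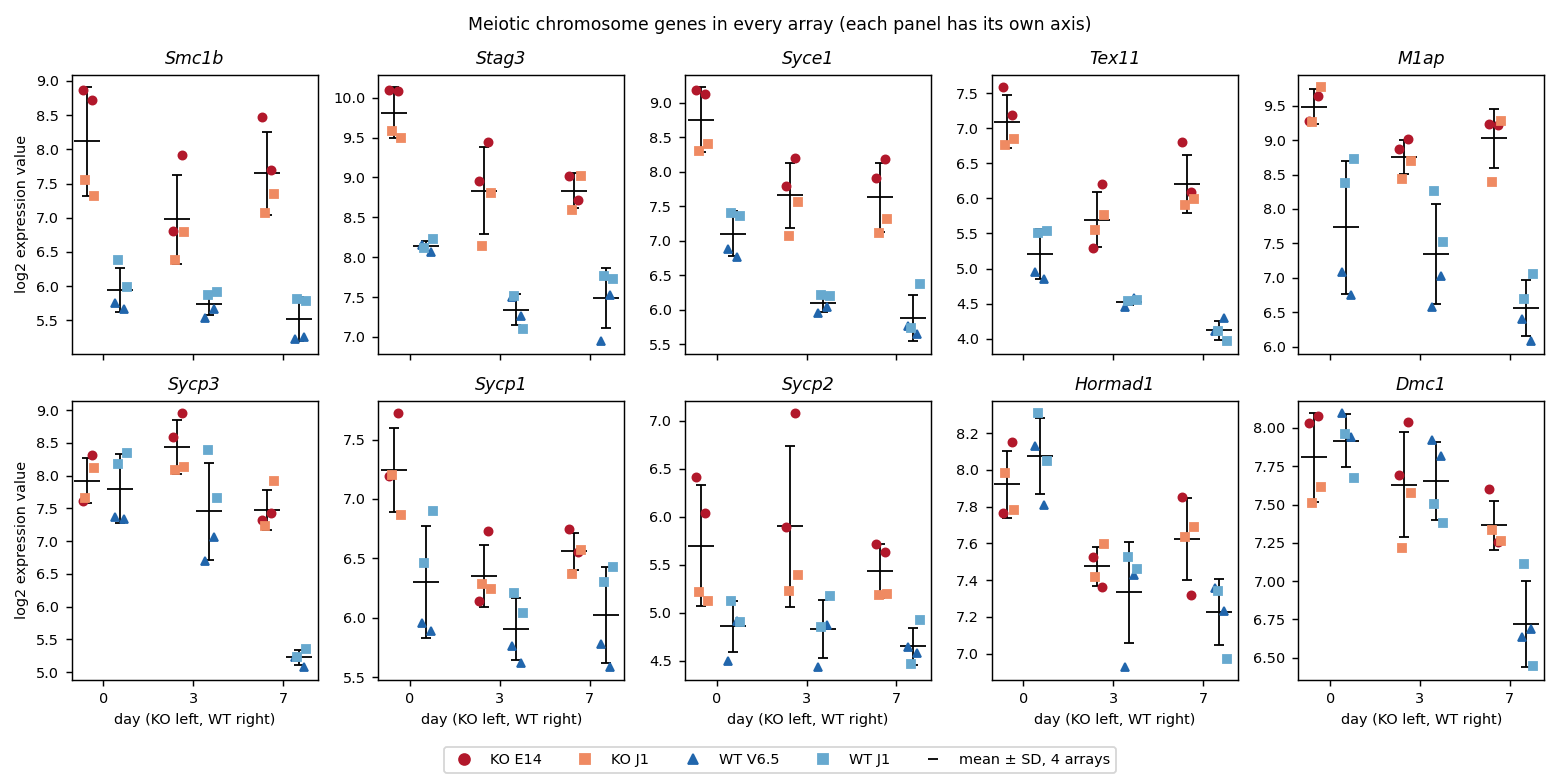
Log2 expression values of the 10 members in each of the 24 arrays by day, with KO arrays on the left and WT arrays on the right of each day, symbols for the 4 lines, and bars for the mean and SD of 4 arrays. KO arrays stand apart from WT arrays on every day for Smc1b, Stag3, Syce1, Tex11 and M1ap, and only on day 7 for Sycp3. Hormad1, by the probe set used, overlaps on all 3 days.

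The recombination and axis genes fell into 2 kinds. Tex11, an X-linked gene, read 7.58 and 7.19 in E14 KO and 6.75 and 6.85 in J1 KO on day 0, against 4.95 and 4.85 in V6.5 WT and 5.50 and 5.54 in J1 WT. On day 3 it read 5.29 and 6.20 in E14 KO and 5.55 and 5.76 in J1 KO, against 4.45 and 4.58 in V6.5 WT and 4.54 and 4.55 in J1 WT. On day 7 it read 6.81 and 6.09 in E14 KO and 5.91 and 5.99 in J1 KO, against 4.11 and 4.29 in V6.5 WT and 4.11 and 3.97 in J1 WT. KO and WT were separate on each day, while KO EBs of day 3 overlapped the J1 WT ESCs of day 0. All WT arrays and all KO arrays of day 3 lay below 6.26, the 95th percentile of the olfactory receptor genes. The differences were 1.88, 1.17 and 2.08 on days 0, 3 and 7 (SE 0.225).

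M1ap read 9.28 and 9.63 in E14 KO and 9.25 and 9.77 in J1 KO on day 0, against 7.09 and 6.75 in V6.5 WT and 8.37 and 8.73 in J1 WT. On day 3 it read 8.87 and 9.02 in E14 KO and 8.44 and 8.70 in J1 KO, against 6.58 and 7.03 in V6.5 WT and 8.27 and 7.52 in J1 WT. On day 7 it read 9.23 and 9.22 in E14 KO and 8.39 and 9.27 in J1 KO, against 6.41 and 6.09 in V6.5 WT and 6.70 and 7.05 in J1 WT. The WT lines differed widely on days 0 and 3, where the SD was 0.26 and 0.25 in KO, against 0.96 and 0.72 in WT. The differences were 1.75, 1.41 and 2.47 on days 0, 3 and 7 (SE 0.338). On day 3 M1ap missed the call rule in 4 of 8 removals of a single replicate, at limma's adjusted p = 0.069 to 0.12. It also missed the rule on days 0 and 3 without the KO E14 clone or without the WT V6.5 clone. Without the KO J1 clone it missed the rule on day 3.

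Dmc1 and Hormad1 did not meet the call rule on any day. Dmc1 averaged 7.81 ± 0.29 in KO and 7.92 ± 0.18 in WT on day 0, 7.63 ± 0.34 in KO and 7.66 ± 0.25 in WT on day 3, and 7.36 ± 0.16 in KO and 6.72 ± 0.28 in WT on day 7 (SD, n = 4 each). Its arrays overlapped on days 0 and 3, and on day 7 the lowest KO array was 0.144 above the highest WT array. Hormad1 averaged 7.92 ± 0.18 in KO and 8.07 ± 0.21 in WT on day 0, and 7.62 ± 0.22 in KO and 7.23 ± 0.18 in WT on day 7 (SD, n = 4 each). Its differences were −0.15, 0.14 and 0.40 on days 0, 3 and 7 (SE 0.16). The second Hormad1 probe set averaged 4.24 ± 0.25 in KO and 3.24 ± 0.17 in WT on day 7. Its arrays were then separate, at 3.98 to 4.55 in KO and 3.06 to 3.44 in WT. On day 0 it averaged 4.76 ± 0.08 in KO and 4.72 ± 0.25 in WT, and the genotypes overlapped, as on day 3.

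The size of the difference depended on which KO and WT lines were set against each other. For Smc1b, J1 KO stood 1.25, 0.70 and 1.41 above J1 WT on days 0, 3 and 7, and E14 KO stood 3.09, 1.76 and 2.85 above V6.5 WT (SE 0.271). For M1ap, J1 KO stood 0.96, 0.68 and 1.95 above J1 WT, and E14 KO stood 2.54, 2.14 and 2.98 above V6.5 WT (SE 0.28). These pairs share no array, and E14 KO and V6.5 WT differ in line as well as in genotype, which cannot be told apart. In J1 the differences were 1.37, 1.16 and 1.06 for Stag3 (SE 0.23) and 1.28, 1.11 and 1.91 for Tex11 (SE 0.235) on days 0, 3 and 7. These are subsets of the arrays on which the members were chosen.

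In J1 alone, 3 members met the call rule on day 0 (Smc1b, Tex11 and Stag3), 3 on day 3 (Syce1, Tex11 and Stag3) and 6 on day 7, where 0.286%, 0.742% and 2.91% of all genes were called higher. Between E14 KO and V6.5 WT, 7 members met it on each day, where 1.58%, 1.33% and 4.48% of all genes were called higher. Sycp2 met it on all days and Sycp1 on day 0 in that pair, with 1.52 and 1.54 on day 0, against 0.16 and 0.35 between J1 KO and J1 WT. Sycp3 on day 7 was alike in both pairs, with 2.29 between J1 KO and J1 WT and 2.22 between E14 KO and V6.5 WT (SE 0.258).

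**Figure D2:**
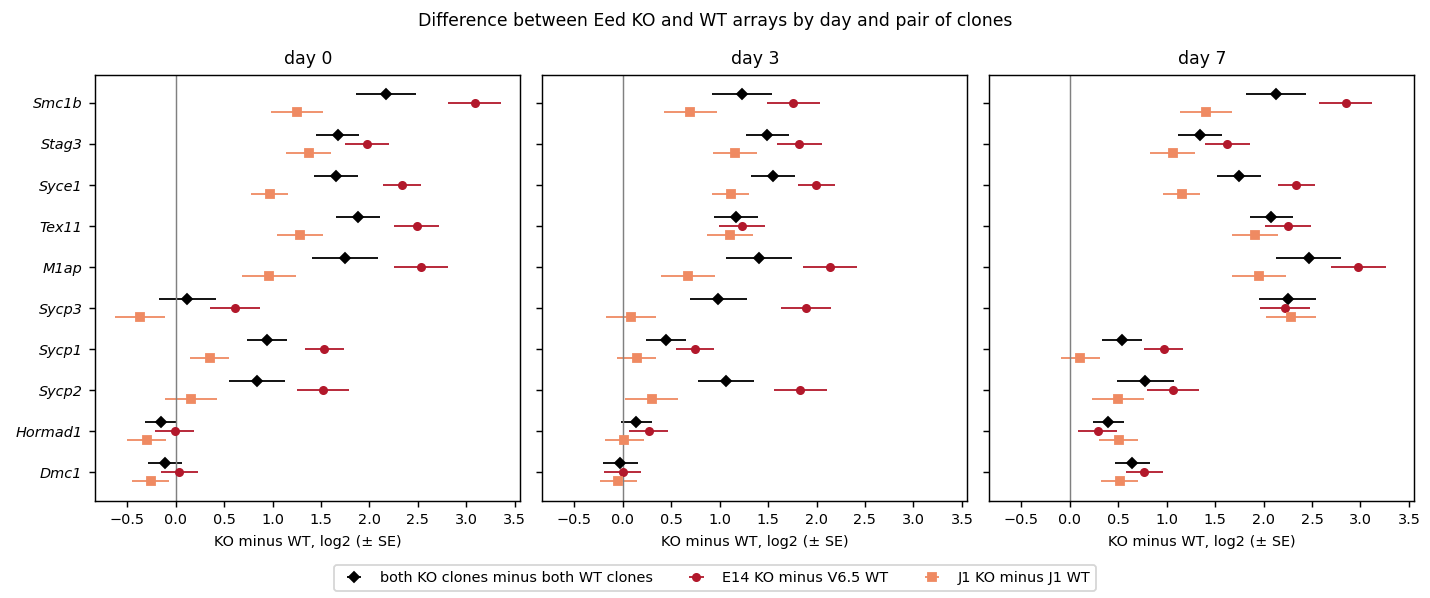
Difference between KO and WT on the log2 scale (horizontal axis) for the 10 members on days 0, 3 and 7, with bars for the SE, for all 4 clones, for E14 KO against V6.5 WT and for J1 KO against J1 WT. Smc1b on day 0 is 3.09 in the pair of E14 KO and V6.5 WT and 1.25 in J1, while Sycp3 on day 7 is 2.22 and 2.29.

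Without the WT J1 arrays of day 7, the day 7 differences were 2.32 for Smc1b, 1.597 for Stag3, 1.83 for Syce1, 1.93 for Tex11, 2.47 for M1ap and 2.09 for Sycp3. The same count of 6 members met the call rule. When the arrays of a clone and day were averaged, which leaves 6 residual degrees of freedom, 2 members met it on day 0, 1 on day 3 and 6 on day 7. Smc1b, Syce1 and M1ap then missed it on days 0 and 3, and Tex11 on day 3. On day 3 the count was 3 to 5 when single replicates were left out, and without KO E14 replicate 2 the Smc1b difference was 0.99.

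From day 0 to day 7 the means of all 10 members were lower in both genotypes, and the changes between days were tested within each. The day changes use the same arrays as the differences above and are not independent of them. Choosing members for KO values above WT may favour low WT values, so counts of falls in WT are no independent test. From day 0 to day 3 in KO, Tex11, Syce1 and Smc1b fell, by 1.40 (SE 0.191, adjusted p = 5.7e-05, limma), 1.10 (SE 0.194, 0.00083) and 1.14 (SE 0.263, 0.0084). That is 3 of 10 members, while 0.607% of all genes were called lower. Stag3 and Sycp1 changed by −0.98 and −0.90, under 2-fold at adjusted p = 0.0020 and 0.0024 (limma), and Sycp3 by 0.51 (adjusted p = 0.27). Without KO E14 replicate 1 the changes of Smc1b and Syce1 were −0.83 (adjusted p = 0.11) and −0.997 (adjusted p = 0.020), and neither was called. Without the whole KO E14 clone the Smc1b change was −0.85 (adjusted p = 0.060). It was −1.14 but not called with no clone block (adjusted p = 0.055), with the arrays of a clone and day averaged (0.081) and without the WT V6.5 clone (0.060).

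From day 3 to day 7 in KO limma called none of the 10 members (3 at an unadjusted p under 0.05), while 2.0% of all genes were called in either direction. The largest changes were Sycp3 at −0.96 (adjusted p = 0.014, limma), which passed the p threshold but not the fold minimum, and Smc1b at 0.67 (adjusted p = 0.11). Without KO J1 replicate 1 the Sycp3 change was just past 2-fold (adjusted p = 0.043), without KO J1 replicate 2 it was −1.21 (adjusted p = 0.012), and it was called in both. Over the whole course in KO, from day 0 to day 7, Syce1 fell by 1.12 (adjusted p = 0.00025) and was the 1 member called, while 0.421% of all genes were called lower. The other 9 changes were all negative, from −0.27 for Sycp2 to −0.98 for Stag3, which reached −1.15 (adjusted p = 0.0020) and was called without KO J1 replicate 2.

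In WT cells no member was called between days 0 and 3 (5 at an unadjusted p under 0.05), where limma called 1.08% of all genes lower and where Syce1, Stag3, Hormad1 and Tex11 passed the p threshold alone. Syce1 came closest, with a change of −0.999 that is just under 2-fold (adjusted p = 0.0010). It was called without WT V6.5 replicate 1 (−1.02) or 2 (−1.09). From day 3 to day 7 Sycp3 fell by 2.23 in WT (SE 0.25, adjusted p = 3.4e-07), while 2.45% of all genes were called lower. Dmc1 changed by −0.93 (adjusted p = 4.9e-05), and by −1.06 without the WT J1 arrays of day 7, when it was called. M1ap changed by −0.79 (adjusted p = 0.041), under 2-fold.

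From day 0 to day 7 in WT, 5 of 10 members were called lower, beside 3.89% of all genes, a count that the choice of members may have favoured. Sycp3 fell by 2.58 (SE 0.25, adjusted p = 2.0e-08, limma). Syce1 fell by 1.22 (adjusted p = 1.9e-05), Dmc1 fell by 1.20 (adjusted p = 1.1e-06), M1ap fell by 1.17 (adjusted p = 0.0021) and Tex11 fell by 1.09 (adjusted p = 6.5e-05). Hormad1 and Stag3 changed by −0.85 and −0.65 and passed the p threshold alone. Hormad1 was called with the mean of its 2 probe sets (−1.16, adjusted p = 3.7e-08) and without the WT V6.5 clone (−1.02). Smc1b, Sycp1 and Sycp2 changed by −0.43, −0.28 and −0.21, at adjusted p = 0.23, 0.24 and 0.58. Without the WT J1 arrays of day 7, Sycp3, Syce1, Dmc1 and M1ap were called, with changes of −2.41, −1.30, −1.33 and −1.18. Tex11 was not called without those arrays (−0.94), without WT J1 replicate 1 (−0.99) or 2 (−0.93), or without the WT J1 clone (−0.70), and M1ap was not without that clone (−0.67, adjusted p = 0.059).

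In KO the change from day 0 to day 7 was −0.44 (adjusted p = 0.049, limma) for Dmc1 and −0.45 (adjusted p = 0.26) for Sycp3, the members with the lowest adjusted p in WT. Whether these changes differ between genotypes was not tested, because the members were chosen on differences between genotypes. Pou5f1, the ESC marker, changed by −0.59 in KO from day 0 to day 7 and fell by 3.78 in WT. Across the 24 arrays Sycp3 and Dmc1 correlated with Pou5f1 at r = 0.871 and 0.850, and the other 8 members at 0.255 to 0.540. These points share clones and days, and the correlation is given as a description.

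**Figure D3:**
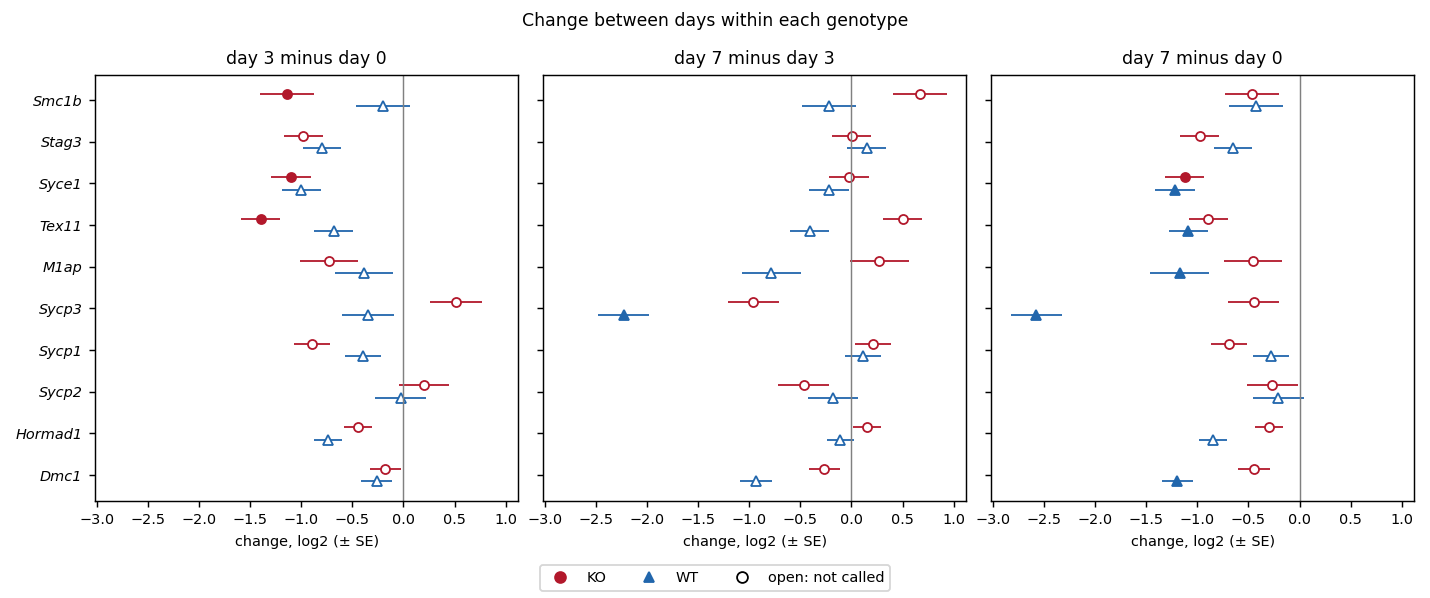
Change between days on the log2 scale (horizontal axis) within KO and within WT for the 10 members, with bars for the SE and filled symbols for called changes. Sycp3 stands apart in WT between days 3 and 7 with a change of −2.23, and from day 0 to day 7 the points lie below 0 in both genotypes.

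By mean level over genotype and day, the 5 members separate on all days had all 3 KO groups above all 3 WT groups. Smc1b was highest in KO on day 0 (8.12 ± 0.79), followed by KO on day 7 (7.65 ± 0.61) and KO on day 3 (6.97 ± 0.65), then WT on days 0, 3 and 7 (5.95 ± 0.32, 5.74 ± 0.18 and 5.52 ± 0.32; SD, n = 4 each). Its neighbouring WT groups differed by less than the larger of their SDs. M1ap was highest in KO on day 0 (9.48 ± 0.26), then KO on day 7 (9.03 ± 0.43) and day 3 (8.75 ± 0.25), and its 3 WT groups lay from 7.74 ± 0.96 on day 0 to 6.56 ± 0.41 on day 7. Sycp3 was highest in KO on day 3 (8.44 ± 0.41), and KO on days 0 and 7 and WT on days 0 and 3 followed between 7.92 and 7.45, neighbours differing by less than the larger of their SDs, with WT on day 7 far below at 5.22 ± 0.11. Hormad1 was highest in WT on day 0 (8.07 ± 0.21) and Dmc1 likewise (7.92 ± 0.18), and both were lowest in WT on day 7.

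Differences between lines of a genotype were tested in a model of 12 line-by-day means. On day 0 Smc1b was higher in E14 KO than in J1 KO, by 1.36 (SE 0.271, adjusted p = 0.017, limma), the 1 member called among 0.251% of all genes called higher. Without KO J1 replicate 1 or 2 its adjusted p was 0.10 or 0.28, and without either WT V6.5 replicate it was 0.051. On days 3 and 7 the Smc1b difference was 0.77 (adjusted p = 0.34) and 0.88 (adjusted p = 0.090). No member was called between the KO lines on those days (6 and 3 at an unadjusted p under 0.05), where 0.0451% and 0.998% of all genes were called either way. Sycp2 was 1.05, 1.18 and 0.49 higher in E14 KO on days 0, 3 and 7, at adjusted p = 0.059, 0.080 and 0.47. Without the WT J1 arrays of day 7, which changes only the estimate of the spread, Sycp2 was called on days 0 and 3 (adjusted p = 0.028 and 0.037). Syce1 was 0.81 and 0.84 higher in E14 KO on days 0 and 7 (adjusted p = 0.039 and 0.020), under 2-fold. The median difference over the 10 members was 0.52, 0.56 and 0.29 on the 3 days.

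Between WT lines, M1ap was lower in V6.5 than in J1 on day 0, by 1.63 (SE 0.28, adjusted p = 0.0031), while 0.692% of all genes were called lower. The difference was −1.46 (adjusted p = 0.083) without WT V6.5 replicate 2. On day 3 M1ap and Sycp3 were lower in V6.5 WT, by 1.09 (adjusted p = 0.045) and 1.15 (adjusted p = 0.022), while 0.341% of all genes were called lower. Without WT J1 replicate 1 these differences were −0.71 and −0.78, without WT V6.5 replicate 1 they were −0.86 and −0.97, and without WT V6.5 replicate 2 their adjusted p was 0.20 and 0.17. No such removal left either called. M1ap was also not called on day 3 without KO E14 replicate 1 or 2 (adjusted p = 0.084). On day 7 no member was called between WT lines (3 at an unadjusted p under 0.05), where 0.993% of all genes were called either way. Day 7 minus day 0 changes did not differ by the call rule between the lines of either genotype for any of the 10 members (0 and 3 at an unadjusted p under 0.05 in KO and in WT), while limma called 0.115% of all genes between KO lines and 0.757% between WT lines.

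**Figure D4:**
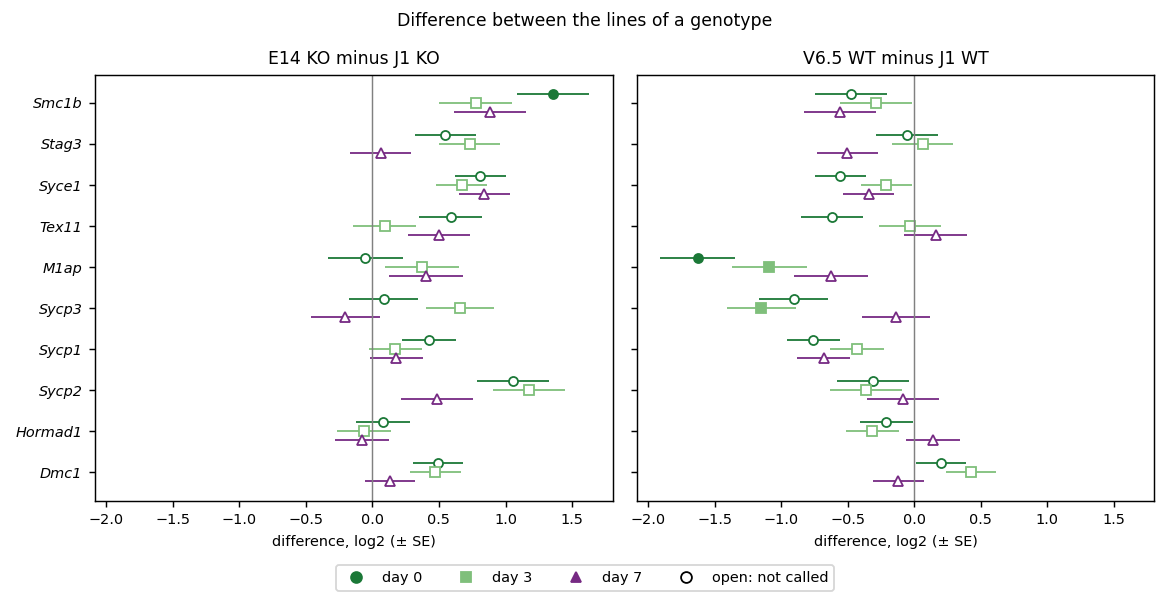
Difference between lines on the log2 scale (horizontal axis), E14 KO minus J1 KO on the left and V6.5 WT minus J1 WT on the right, for the 10 members on days 0, 3 and 7, with bars for the SE and filled symbols for called differences. Smc1b on day 0 lies at 1.36 between KO lines and M1ap on day 0 at −1.63 between WT lines.

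Other meiotic genes, with a group of regulators among them, were read from a list of 54 genes, of which 44 were measured. Like all lists here, it was chosen with earlier results of these data known, so its counts are no independent test. On day 0, 5 of the 44 were called higher in KO by limma and none lower (0.461% of all genes higher), 1 on day 3 and 8 on day 7 (0.667% and 3.08% of all genes). The list median was 0.16, 0.16 and 0.34 on days 0, 3 and 7. Without KO E14 replicate 1 the day 0 count was 1, and when the arrays of a clone and day were averaged it was 0. None of the 7 measured genes of the synaptonemal complex and cohesin group was called on any day by limma (2, 3 and 3 at an unadjusted p under 0.05). Rec8, the meiotic kleisin that STAG3 binds, differed by −0.17, −0.04 and 0.48 on days 0, 3 and 7 (SE 0.134), and Syce2, a central element gene like Syce1, by −0.58, −0.29 and 0.12 (SE 0.14). Of 8 measured axis and double-strand break genes, Mei4, needed for meiotic double-strand breaks, was called on day 7 at 1.48 (SE 0.195). None of the 6 measured telomere attachment genes was called (0, 1 and 2 at an unadjusted p under 0.05).

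Among 17 measured recombination genes, Shoc1 and Tex15 were called on day 0 (1.01 each), and Hsf2bp (2.75), Tex15 (1.40) and Shoc1 (1.03) on day 7. SHOC1 acts in crossover formation and HSF2BP in loading recombinases onto breaks. The group listed as regulators is not limited to parts of the meiotic machinery. Among its 6 measured genes, Mael (2.07), Dazl (1.34) and Tdrkh (1.11) were called on day 0 and Mael (2.86) on day 3. On day 7 Mael (3.94), Dazl (2.54), Meioc (2.22) and Stra8 (1.57) were called. STRA8 starts meiosis in response to retinoic acid, and MEIOC holds germ cells in meiotic prophase. Between days 0 and 7, 1 of the 44 was called higher in KO, Stra8 at 1.06, and 1 lower, Spata22 at −1.05, where 2.05% of all genes were called higher and 0.421% lower. In WT 1 was called higher, Tdrkh at 1.02, and 8 lower, among them Hsf2bp (−3.50), Mael (−2.80), Mei4 (−2.12), Meioc (−1.96) and Dazl (−1.05), where 5.09% of all genes were called higher and 3.89% lower.

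Of 21 measured cohesin and recombination genes of somatic cells, limma called 0 on each of the 3 days, with 5, 2 and 4 at an unadjusted p under 0.05. At 0.461%, 0.667% and 3.08% of all genes called higher, a list of this size would hold less than 1 such gene on any day. On day 7, 3 passed the adjusted p threshold without the fold minimum. Smc1a differed by 0.35, 0.24 and 0.18 and Stag2 by −0.51, −0.25 and −0.36 on days 0, 3 and 7. A list of 26 genes covers the pathways known to repress germline genes, which are PRC1.6, DNA methylation with the TET enzymes that counter it, and methylation of lysine 9 of histone H3. Of these, 0, 2 and 2 were called higher in KO on days 0, 3 and 7 by limma (3.08% of all genes on day 7), Dnmt3l (2.08) and Tet2 (1.11) on day 3, and Dnmt3l (4.23) and Tet1 (1.18) on day 7. DNMT3L is a cofactor of the DNA methyltransferases of early embryos and germ cells, and TET proteins oxidise methylated cytosine. The PRC1.6 genes Pcgf6, Mga and E2f6 were not called, with differences of 0.02, 0.20 and 0.27 on day 0 and 0.67, 0.30 and −0.03 on day 7. Without the KO E14 clone neither Dnmt3l nor Tet2 was called on day 3.

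**Figure D5:**
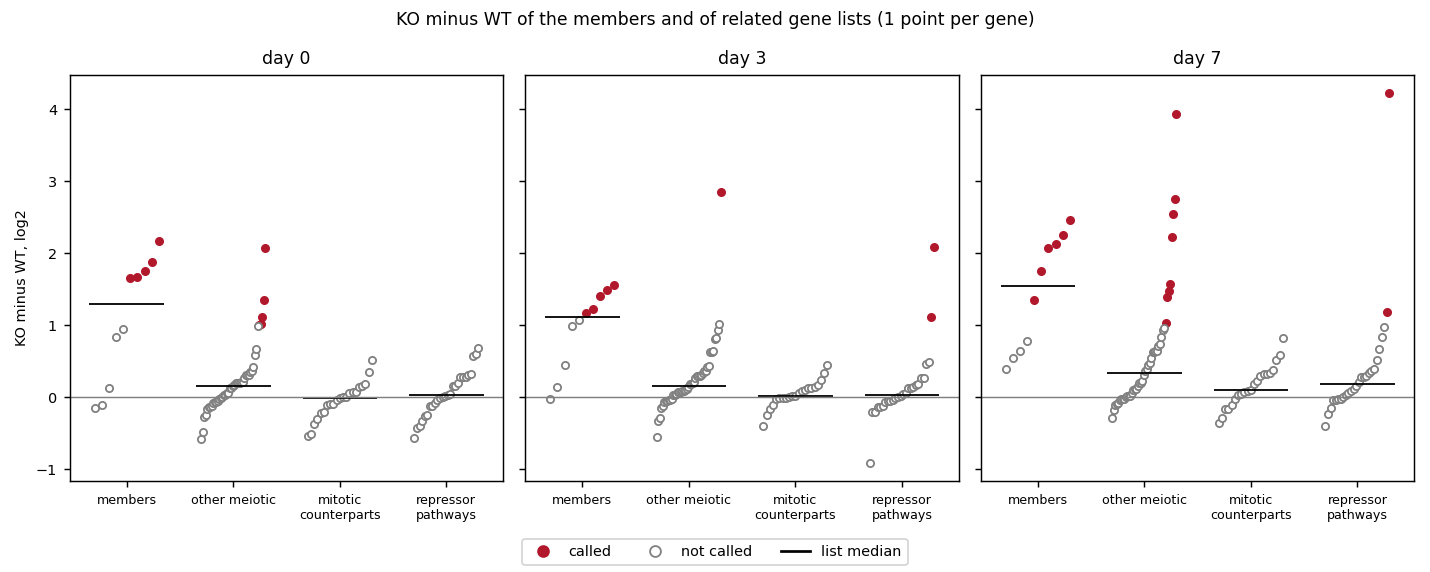
Difference between KO and WT on the log2 scale (vertical axis) for the 10 members, 44 other meiotic genes, 21 mitotic counterparts and 26 genes of pathways that repress germline genes (Tet1, Tet2 and Tet3, which counter DNA methylation, included) on days 0, 3 and 7, with 1 point per gene, filled where called, and a bar at the list median. On day 7 the highest points are Dnmt3l at 4.23 and Mael at 3.94, and no mitotic counterpart is filled.

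Markers of other cells were read beside these results. The 10 fibroblast genes were listed as markers of feeder cells. On day 0 they averaged 8.51 to 9.56 per array in KO and 8.08 to 8.42 in WT. Lox, Thbs1 and Fbln2 were called higher in KO, 3 of 10 (0.461% of all genes), and 7 were not called. On day 7 they averaged 8.46 to 8.97 in KO and 8.64 to 9.67 in WT. Of the 10, 3 were called lower in KO (1.28% of all genes). In WT 7 of 10 were called higher from day 3 to day 7 and 1 lower (3.78% and 2.45% of all genes). These EBs were started from fibroblast-depleted ESCs, and which cells express the genes there was not tested. Blood genes were at 5.97 to 6.69 per array in KO and 10.3 to 11.4 in WT on day 7, with 4 of 5 called lower in KO (median −5.79) and 4 of 5 called higher in WT from day 3 to day 7 (median 5.82). Of 4 cardiac genes, 2 were called lower in KO on day 7 (median −0.72), and 2 were not called, with a highest difference of 0.12. In WT 2 were called higher from day 3 to day 7 and 2 were not called. Some genes of each of these lists thus moved with the day 7 differences and with the WT falls. The part of these cell types in the members' values, on day 0 or later, was not tested. Primordial germ cell markers averaged 7.94 to 8.39 per array in KO and 7.55 to 7.99 in WT on day 0, and 7.79 to 8.06 in KO and 6.60 to 6.77 in WT on day 7. Of those 10 genes, 1, 3 and 5 were called higher in KO on days 0, 3 and 7 (0.461%, 0.667% and 3.08% of all genes), and none lower. Their differences ran from −0.73 to 1.34 on day 0 (median 0.19). On day 7 they ran from −0.17 to 2.54 (median 1.36), with Ddx4 at 2.23, Dazl at 2.54 and Dppa3 at 1.95 among the higher ones. ESC genes moved with the same contrast, with 5 of 5 called higher in KO on day 7. The part of either marker set in the members' differences was not tested. The 10 spermatocyte and spermatid genes averaged 6.06 to 6.19 per array in KO and 6.07 to 6.22 in WT on day 7, the 8 oocyte genes 5.67 to 5.95 in KO and 5.58 to 5.79 in WT, and limma called 0 of these 18 between all KO and all WT arrays on each day, with 2, 3 and 2 at an unadjusted p under 0.05 on days 0, 3 and 7. Between J1 KO and J1 WT on day 7, 1 of the 18 was called, the oocyte gene Zp3 at 1.30 (adjusted p = 0.00093), and Zp3 also fell in WT between days 0 and 7, by 1.61 (adjusted p = 4.0e-06).

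The 45 pairwise correlations of the members over the 24 arrays ran from 0.162 to 0.949, with a median of 0.651. Part of this is built in, since the members were chosen on a difference between genotypes in the same arrays. Genes outside the list with the most similar pattern to the mean of the members were Abcb1a (r = 0.972), Stk31 (0.969), Mael (0.952), Ddx43 (0.944), Slc25a31 (0.943) and Rbm44 (0.941). The closest to Smc1b alone were Shoc1 (0.935), Stk31 (0.934) and Sohlh2 (0.929). The arrays share 4 clones and 3 days, and no shared function is read from this.

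The members lie on 8 chromosomes. Of the 20 genes next to them in RefSeq order, all measured, 0 were called on day 0, 0 on day 3 and 2 on day 7, with 1 higher and 1 lower in KO, where 3.08% of all genes were called higher and 1.28% lower. Slc7a3 beside Tex11 was 3.21 higher in KO and Nr1h5 beside Sycp1 2.86 lower (−2.86), and both are named for being called. The genes flanking Smc1b, Fam118a and Ribc2, differed by −0.12 and 0.19 on day 0, and those flanking Stag3, Gal3st4 and Gpc2, by −0.17 and 0.05.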

How the data were processed

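The authors deposited 1 log2 value for each probe set and array. The submitters' processing notes name Affymetrix Power Tools and RMA, without versions or a genome build, which the sources used here do not give. That the scale is log2 was inferred from its range of 2.08 to 14.4. RMA forces arrays to 1 distribution, so a change in RNA content per cell cannot be seen, and it compresses differences near background. The number of arrays limits the precision.

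Of 35556 probe sets, 21789 had 1 gene symbol in the platform annotation and were used, 1621 had several and 12146 were not listed. The probe set with the highest mean stood for a gene, which left 19938 genes with no filter on low values. limma 3.58.1 (statmod 1.5.0, R 4.3.3) fitted 6 genotype-by-day means over 24 arrays, treating clone as a random block (consensus correlation 0.161, 18 residual degrees of freedom). Line comparisons came from 12 line-by-day means (12 residual degrees of freedom). SE are the model's and SD are over 4 arrays. The same consensus correlation served all genes. For genes whose clones differ more, such as Smc1b in KO and M1ap in WT on day 0, the SE of KO against WT may be too small. The fits were run on simulated data in which every gene had a clone correlation of 0.16. That setting does not cover genes whose clones differ more, and no result here rests on it.

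The members and all lists were chosen with earlier results of these data known. Named besides the members were the called genes of each list (at most 6), some fixed examples, and the genes most correlated with the members over 24 arrays, passing over predicted genes. Syce2, Spata22, the fibroblast and germ cell markers named, and the flanking genes fall outside that rule and were chosen after their values were seen. Of the list of 54 other meiotic genes, 10 had no single-symbol probe set and are not analysed here, and 3 were matched through older symbols. Promoter windows are RefSeq's.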

Additional observations from a re-analysis of the deposited data

Results flagged for a closer look

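In 3 of 60 groups of 4 arrays, 1 for each member, genotype and day, the highest or lowest array lay far from the other 3. Chance flags about 1 in 20 groups. Syce1 read 6.37 in WT J1 replicate 2 on day 7, above the 3 other WT arrays. Hormad1 read 6.93 in WT V6.5 replicate 1 on day 3, below the others. M1ap read 8.39 in KO J1 replicate 1 on day 7, below the 3 other KO arrays. The first of these arrays belongs to the WT J1 pair of day 7 that differed most between repeat arrays.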

How the results depend on the processing

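Averaging the arrays of a clone and day gave 2 and 1 members meeting the call rule as higher in KO on days 0 and 3 (5 each as reported), 0 other meiotic genes on day 0 (5) and 0 repressor pathway genes on day 3 (2). J1 KO against J1 WT alone gave 3 members on day 0 and 3 on day 3, with medians of 0.66, 0.49 and 1.11 on days 0, 3 and 7. Without the KO E14 clone there were 3 members on day 3 (median 0.75), 1 other meiotic gene on day 0 and 0 repressor pathway genes on day 3. Without the KO J1 clone the day 3 median was 1.45, 4 other meiotic genes were called on day 3 and 1 mitotic counterpart on day 7. Members lower over days in KO were then 1 from day 3 to 7 and 2 from day 0 to 7. Without the WT V6.5 clone there were 3 members on day 3 and a median of 0.81 on day 0. The other meiotic genes called were then 1 on day 0 and 2 on day 3, with 2 members lower in WT from day 3 to 7 and 0 between KO lines. Without the WT J1 clone, members lower in WT were 2 from day 3 to 7 and 3 from day 0 to 7, with 2 between KO lines and 1 repressor pathway gene on day 3. Without the WT J1 arrays of day 7, an alternative chosen after seeing the data, 2 members were lower in WT from day 3 to 7, 2 differed between KO lines and 2 other meiotic genes were called on day 3.

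Quantile normalization gave 1 member lower from day 3 to 7 and 2 from day 0 to 7 in KO, and 1 from day 0 to 3 in WT. A filter on low values, which 8 of the 10 members passed (Tex11 and Sycp2 did not), gave 3 other meiotic genes on day 0. With no fold minimum, members lower in KO numbered 5, 1 and 5 from day 0 to 3, day 3 to 7 and day 0 to 7, and in WT 4 from day 0 to 3 and 3 from day 3 to 7. It also gave 2 members between KO lines, 18 other meiotic genes and 3 mitotic counterparts on day 7, and 1 and 5 repressor pathway genes on days 0 and 7. Deviations of same-numbered arrays correlated at −0.40 to 0.47 over 66 pairs of groups (median 0.06). These pool pairs of groups of the same day and of different days. Whether the replicate numbers of the labels pair the samples within a day was not tested. With the replicate block, 2 members were called between KO lines (Sycp2 added) and 3 other meiotic genes on day 0, and the other counts stayed within 1.5 times.

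Leaving out single replicates gave 5 to 6, 3 to 5 and 6 members higher in KO on days 0, 3 and 7, with medians of 1.19 to 1.39, 0.90 to 1.24 and 1.45 to 1.65. Members lower in KO were 1 to 4 from day 0 to 3, 0 to 1 from day 3 to 7 and 1 to 2 from day 0 to 7. In WT they were 0 to 1, 1 to 2 and 4 to 5. Between lines there were 0 to 2 in KO and 0 to 2 in WT. Other meiotic genes were 1 to 5, 1 to 2 and 7 to 9 on days 0, 3 and 7, repressor pathway genes 1 to 2 on day 3 and 2 to 3 on day 7. Of 2826 recomputed differences of named genes, 0 changed direction while called, 63 lost a call and 32 gained one, and the causes were not tested. Each genotype rests on 2 clones, and weak probe sets lie near background, where differences are understated.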
